A study of Homo sapiens with 28 samples.

Results

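The mitochondrial ribosomal protein genes were taken as all genes whose symbol in the platform annotation begins with MRPL or MRPS and a digit. For each gene the brightest probe set on average was used, among those that name no other gene. This gave 76 genes of 22357 on the array, of which 71 code for proteins and 5 are antisense, divergent or pseudogene transcripts. Of the 76, 67 were among the 9285 genes bright enough to be tested, which required a log2 intensity above 5 on at least 4 arrays. The study used CHL-1, a human melanoma cell line in established culture. The cells had been treated for 24 h or 4 h with BAY1238097, an inhibitor of the BET bromodomain proteins, at 75 nM (the IC50 given by the submitters) or 468 nM (the IC90), or with the solvent DMSO. There were 5 arrays per dose and time and 4 DMSO arrays per time, 28 in all, and every array came from this single line. Whether the arrays of a group stem from separate cultures is not stated in the labels. The p-values therefore reflect the spread among these samples alone, and that spread may be technical.

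Mitochondria carry their own ribosomes, which translate the small set of proteins encoded by mitochondrial DNA, nearly all of them core subunits of the respiratory chain and the ATP synthase. The ribosomal RNAs are transcribed inside the organelle, but every protein of the particle is encoded in the nucleus, made in the cytosol and imported. Many of these proteins have counterparts in the bacterial ribosome, and the others are found only in mitochondrial ribosomes. The genes are scattered over the nuclear genome, and here the protein-coding members lay on 21 chromosomes. BET proteins read acetylated histones at promoters and enhancers and help to recruit the transcription elongation machinery.

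The promoters of 4 called members are shown as examples because many members changed in the same comparison. They were picked after the values were seen and are not a ranking by size of change. They are RefSeq sequences of GRCh38.p14, from 250 bases before to 50 bases after the annotated start, and 64 of the 71 protein-coding members matched an entry. Capitals mark any of 6 motifs searched on both strands: CACGTG (E-box, bound by MYC and related factors), GCATGCGC (a core of the NRF1 site), CCGGAAG (bound by ETS factors including GABPA), AAGATGGC (YY1), GGGCGG (SP1) and CCAAT. MRPS12, MRPL3 and MRPL18 fell at 468 nM and 24 h, and MRPS33 rose.
MRPS12, chr19:38930694-38930993, plus strand: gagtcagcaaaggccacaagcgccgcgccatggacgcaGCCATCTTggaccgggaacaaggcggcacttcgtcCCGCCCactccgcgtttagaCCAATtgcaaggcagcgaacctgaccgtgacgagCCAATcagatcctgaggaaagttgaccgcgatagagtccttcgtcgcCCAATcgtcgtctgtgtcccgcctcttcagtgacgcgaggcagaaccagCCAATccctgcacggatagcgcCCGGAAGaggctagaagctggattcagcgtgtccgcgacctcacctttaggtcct
MRPL3, chr3:131502922-131503221, minus strand: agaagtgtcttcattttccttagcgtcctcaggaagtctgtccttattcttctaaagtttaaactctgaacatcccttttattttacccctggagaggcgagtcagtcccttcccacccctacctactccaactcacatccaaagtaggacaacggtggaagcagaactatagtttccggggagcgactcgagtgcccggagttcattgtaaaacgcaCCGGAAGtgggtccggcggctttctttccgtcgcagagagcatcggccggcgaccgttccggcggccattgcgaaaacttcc
MRPL18, chr6:159789562-159789861, plus strand: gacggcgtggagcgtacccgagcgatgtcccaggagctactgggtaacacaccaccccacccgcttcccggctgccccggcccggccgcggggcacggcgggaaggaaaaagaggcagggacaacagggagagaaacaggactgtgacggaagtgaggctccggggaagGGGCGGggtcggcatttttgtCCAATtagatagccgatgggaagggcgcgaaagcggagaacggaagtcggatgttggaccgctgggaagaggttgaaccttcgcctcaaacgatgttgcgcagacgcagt
MRPS33, chr7:141014903-141015202, minus strand: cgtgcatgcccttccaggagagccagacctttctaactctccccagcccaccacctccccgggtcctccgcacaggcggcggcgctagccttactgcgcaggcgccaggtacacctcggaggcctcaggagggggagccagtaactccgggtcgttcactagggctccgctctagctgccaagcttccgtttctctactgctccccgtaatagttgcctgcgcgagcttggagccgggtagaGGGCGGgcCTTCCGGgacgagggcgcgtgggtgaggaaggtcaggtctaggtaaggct

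The ETS motif was present in 27 of the 64 member promoters (42.2%), against 10.7% of all 27305 promoters in the table. Those 27305 include promoters of noncoding genes, while the 64 members all code for proteins, so the shares come from unlike sets. The YY1 motif was present in 19 (29.7%), against 3.0% of all promoters, and the NRF1 core in 6 (9.4%), against 3.3%. The SP1 box occurred in 60.9% of member promoters and 44.6% of all, the E-box in 9.4% and 7.4%, and CCAAT in 31.2% and 35.7%. Among the 29 promoters of members lower at 468 nM and 24 h, 10 held the ETS motif and 8 the YY1 motif. Among the 28 promoters of tested members that were not called, these counts were 12 and 9. All 3 promoters of members that were higher held the ETS motif, as in the MRPS33 window above. The NRF1 core was found in 4 promoters of lower members, those of MRPL22, MRPS18B, MRPL32 and MRPL17, and in 0 of the 28 uncalled ones. Of these genes, MRPL22 exceeded a log2 intensity of 5 on 4 of 28 arrays and MRPL32 on 8. The MRPL32 call was lost in 3 alternative settings and when any of 5 single arrays was left out. Lower and uncalled promoters numbered 3 and 1 for the E-box, 20 and 17 for SP1 and 9 and 9 for CCAAT. These differences were not tested. A match describes letters in this window and is not a measured binding site.

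Cell type markers and a known readout of BET inhibition were looked at first. Of 9 melanocyte lineage markers on the array, only 4 passed the filter, namely MCAM, PAX3, S100B and SOX10. The rest, drawn from MITF, PMEL, MLANA, TYR, DCT and TYRP1, did not pass. In the marker lists of other cell types, 0 of 9 keratinocyte, 0 of 5 endothelial, 1 of 6 fibroblast (FBLN1) and 1 of 7 leukocyte (CD68) markers passed. HEXIM1, a P-TEFb inhibitor known to rise on BET inhibition, was higher by 1.30 ± 0.13 on the log2 scale (SE) at 468 nM than with DMSO at 24 h and by 1.67 ± 0.13 at 4 h, with limma adjusted p of 8.76e-09 and 5.2e-10. In the 468 nM, 24 h group, replicate 2 had the lowest values over the members. The median over members of the log2 value minus each gene's mean was -0.30 on that array and between -0.11 and 0.12 on the other 4 of its group. DMSO replicate 1 (0.04) and 75 nM replicate 2 (-0.06) were likewise the lowest of their groups at 24 h. Some of the results that lean on 468 nM replicate 2 are given without it below. Counts by place in the particle, by order of the doses and by overlap of arrays are given only with it.

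At 468 nM and 24 h, 32 of 67 tested mitochondrial ribosomal protein genes fell and 3 rose against DMSO at an adjusted p below 0.05 (limma, Benjamini-Hochberg over all genes tested), and 32 did not pass. In bulk RNA, fewer cells with a transcript and less of it per cell cannot be told apart. The median log2 change was -0.30, against -0.02 over all genes tested, and 54 of 67 members had a value below 0. Among all tested genes 25.1% were called lower and 20.4% higher, whereas 47.8% of members were called lower and 4.48% higher. All 5 treated arrays lay below all 4 DMSO arrays for 16 members (23.9%, against 17.1% of all genes), and all lay above them for 2 (2.99%, against 13% of all genes). The changes were moderate in size, since the largest decrease was 2.15-fold and the largest increase 1.45-fold.

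**Figure D1:**
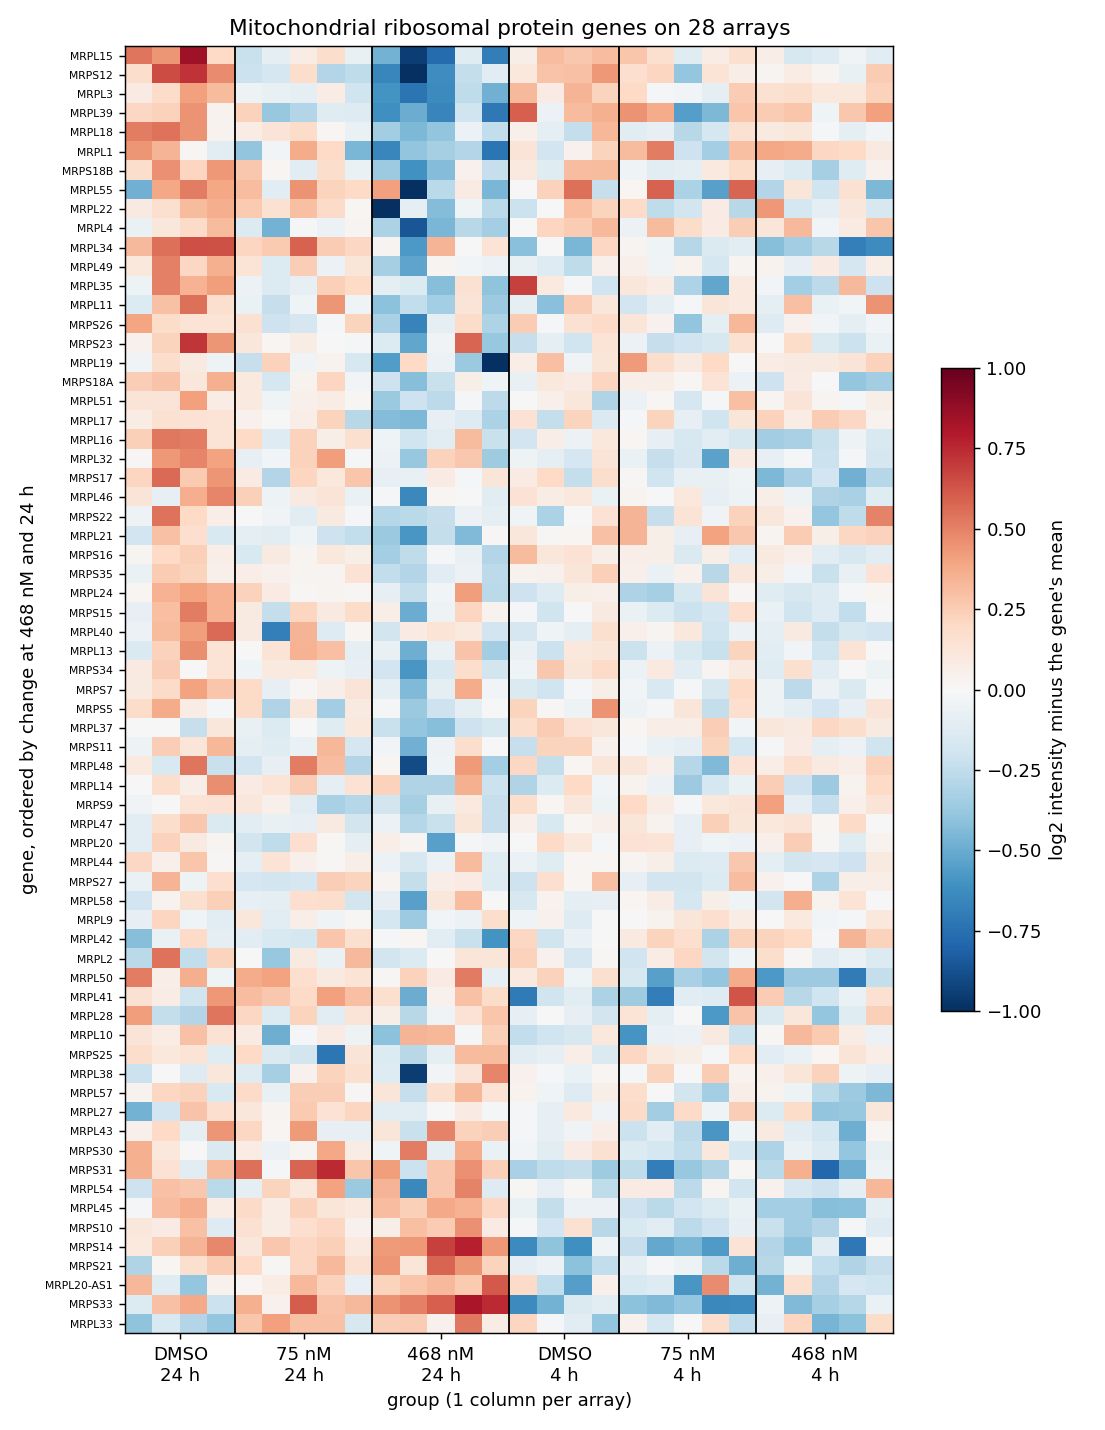
Log2 intensity minus the gene's mean over all arrays for the 67 tested genes (rows, ordered by their change at 468 nM and 24 h) on 28 arrays (columns, grouped by time and dose). Colours run from -1 (blue) to 1 (red), and the upper rows are blue on the 468 nM, 24 h arrays and red on the DMSO, 24 h arrays.

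Without replicate 2 of the 468 nM, 24 h group, 26 members were called (23 lower, 3 higher) and the median change was -0.21. DMSO replicate 1, the lowest DMSO array over the members at 24 h, stayed in that fit. When DMSO replicate 1 alone was left out, 38 were called, 35 lower and 3 higher. Without replicate 3 of DMSO at 24 h, 23 were called, 20 lower and 3 higher. Of the 35 calls, 18 were kept in every alternative setting and with each single array left out, wherever the gene could be tested. These were MRPL15, MRPS12, MRPL3, MRPL39, MRPL18, MRPL1, MRPS18B, MRPL22, MRPL4, MRPL34, MRPL49, MRPS18A, MRPL51, MRPL17, MRPS17 and MRPS16, all lower, and MRPS33 and MRPL33, both higher. Of the 18, 10 were tested in all settings. The other 8, namely MRPS12, MRPL39, MRPL1, MRPL22, MRPL51, MRPL17, MRPS33 and MRPL33, could not be tested with the filter at 7. In addition MRPL33 could not be tested with the mean of its probe sets, nor MRPL22 without DMSO replicate 3 or 4.

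The 3 most negative changes were in genes whose proteins have bacterial counterparts. MRPL15, the large-subunit counterpart of bacterial L15, had log2 intensities at 24 h of 8.43, 8.33, 8.74 and 8.09 with DMSO, 7.67, 7.80, 7.97, 8.07 and 7.82 with 75 nM and 7.42, 6.95, 7.12, 7.77 and 7.20 with 468 nM. All 468 nM arrays lay below all DMSO arrays, and so did all 75 nM arrays. The change at 468 nM was -1.11 ± 0.13 (log2, SE), the most negative among the members, with a limma adjusted p of 2.93e-07. MRPS12, the counterpart of the bacterial S12 protein of the decoding centre, had values of 6.35, 6.83, 6.90 and 6.65 with DMSO, 5.96, 6.01, 6.35, 5.88 and 5.92 with 75 nM and 5.52, 4.91, 5.55, 5.94 and 6.06 with 468 nM. Its 468 nM and DMSO arrays did not overlap, and the change was -1.09 ± 0.17 with an adjusted p of 1.02e-05. MRPL3, the counterpart of bacterial L3 next to the peptidyl transferase centre, had values of 9.70, 9.80, 10.03 and 9.93 with DMSO, 9.57, 9.54, 9.52, 9.69 and 9.42 with 75 nM and 9.02, 8.89, 8.98, 9.36 and 9.14 with 468 nM. Its 468 nM arrays lay below every array of both other groups, and the change was -0.79 ± 0.10 with an adjusted p of 3.79e-07.

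Further large-subunit proteins followed. MRPL39, which has no bacterial counterpart, had values of 6.39, 6.41, 6.63 and 6.22 with DMSO, 6.41, 5.80, 5.89, 6.06 and 6.05 with 75 nM and 5.57, 5.69, 5.52, 5.98 and 5.47 with 468 nM, a change of -0.76 ± 0.18 at 468 nM (adjusted p = 0.00118, limma). MRPL18, the counterpart of bacterial L18, had values of 8.17, 8.20, 8.11 and 7.69 with DMSO, 7.73, 7.79, 7.84, 7.68 and 7.59 with 75 nM and 7.31, 7.21, 7.26, 7.60 and 7.41 with 468 nM, a change of -0.69 ± 0.12 (adjusted p = 2.99e-05). For both, all 468 nM arrays lay below all DMSO arrays. MRPL1, a dim probe set that passed the filter on only 7 of 28 arrays and is the counterpart of bacterial L1, had values of 5.13, 5.03, 4.70 and 4.58 with DMSO, 4.30, 4.66, 5.06, 4.89 and 4.23 with 75 nM and 4.04, 4.30, 4.36, 4.40 and 3.96 with 468 nM. Its 468 nM and DMSO arrays did not overlap (change -0.65 ± 0.17, adjusted p = 0.00356). MRPL1 exceeded the filter on 2 DMSO arrays at 24 h and on 0 arrays at 468 nM and 24 h. It was tested only through groups in which it was higher than at 468 nM and 24 h. MRPL22, the counterpart of an exit-tunnel protein, changed by -0.60 ± 0.16 (adjusted p = 0.00352). It exceeded the filter on exactly 4 of 28 arrays, 2 of them DMSO arrays at 24 h and 0 of them at 468 nM and 24 h. It was thus tested only through groups in which it was higher.

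**Figure D2:**
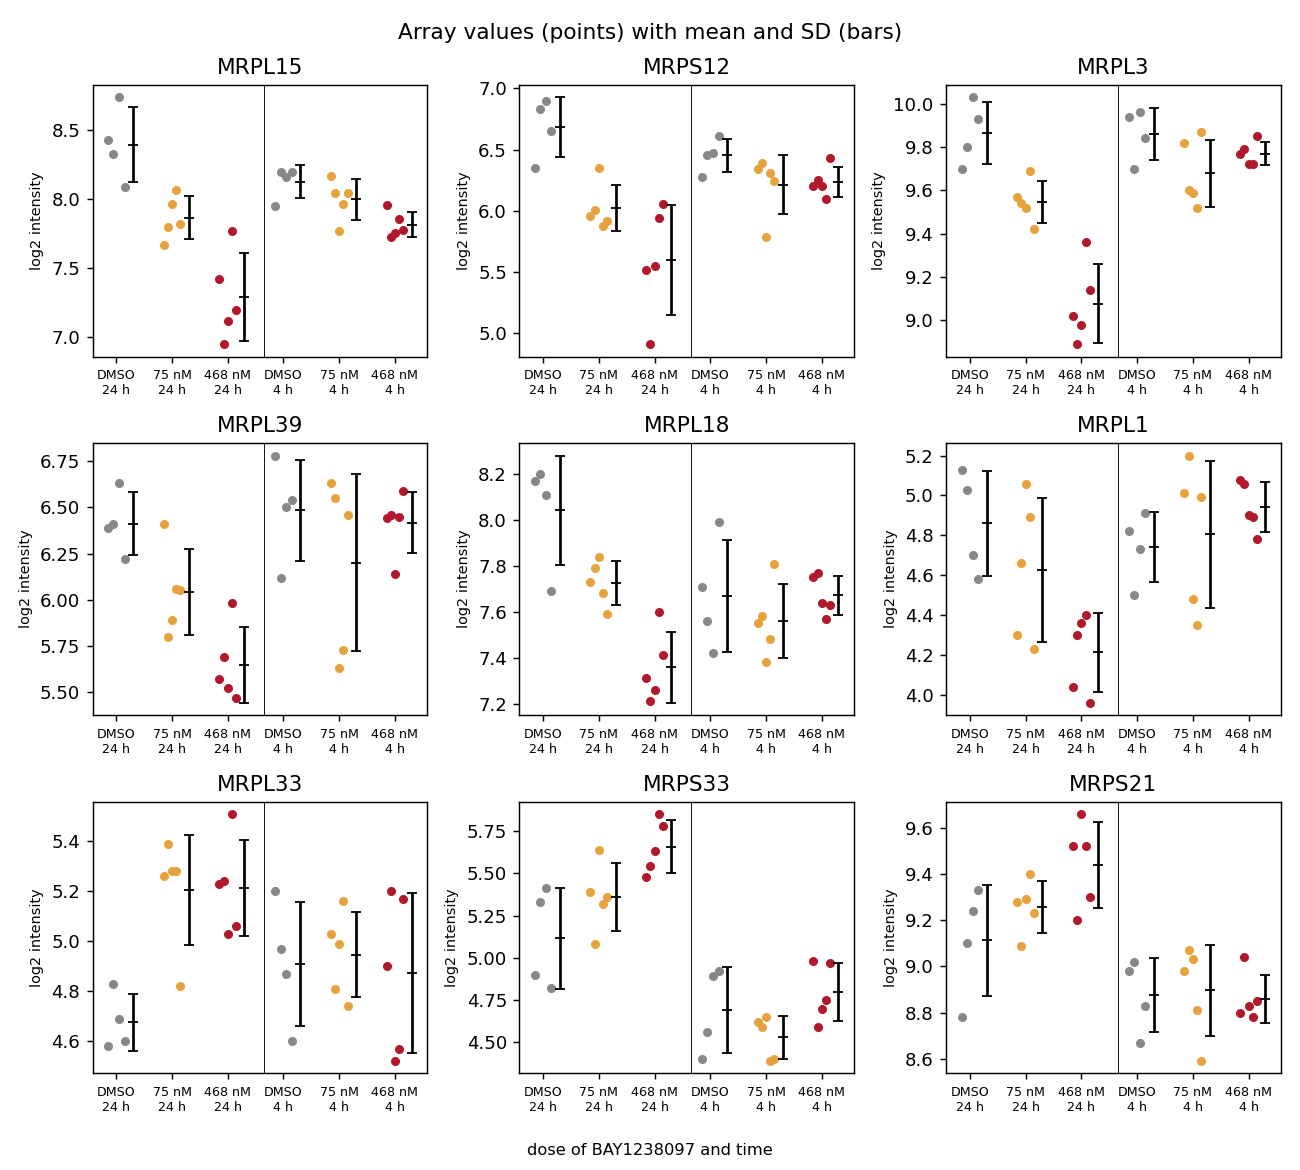
Log2 intensity of 9 members on each array (points) with the group mean and SD (bars), by dose of BAY1238097 at 24 h (left of the line) and 4 h (right). The 6 genes MRPL15 to MRPL1 are lowest at 468 nM and 24 h, and MRPL33, MRPS33 and MRPS21 lie higher there than with DMSO at 24 h.

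The MRPS18 proteins are the paralogue set of the family, with bacterial S18 as their relative, and they occupy different places in the particle. MRPS18B, in the small subunit, averaged 7.84 log2 units at 468 nM and 8.48 with DMSO (change -0.64 ± 0.12, limma adjusted p = 0.000115). MRPS18A, which despite its name sits in the large subunit, averaged 8.36 and 8.78 in the same groups (change -0.42 ± 0.11, adjusted p = 0.0021). MRPS18C did not pass the filter, with group means between 3.12 and 3.72. Of the remaining most negative members, MRPL4, another exit-tunnel protein, changed by -0.59 ± 0.12 (adjusted p = 0.000313), MRPL34 by -0.56 ± 0.15 (0.00358) and MRPL49 by -0.48 ± 0.11 (0.00103). MRPL35 changed by -0.48 ± 0.17 (adjusted p = 0.0248) and missed the threshold without DMSO replicate 2 (0.0798), 3 (0.0537) or 4 (0.0629) or without 468 nM replicate 3 (0.0644) or 5 (0.0602).

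Some members known for particular tasks were not called. MRPL45, which ties the ribosome to the inner membrane, averaged 9.59 at 468 nM and 9.47 with DMSO (log2 difference 0.12 ± 0.09, limma adjusted p = 0.271). MRPL44, an exit-site protein related to a ribonuclease, had a log2 difference of -0.15 ± 0.10 (0.221) and MRPL58, a peptidyl-tRNA hydrolase also known as ICT1, of -0.10 ± 0.13 (0.562). MRPL2, whose bacterial counterpart lies by the peptidyl transferase centre, differed by -0.08 ± 0.15 (0.69), MRPL41 by -0.08 ± 0.19 (0.755) and MRPS30, a large-subunit protein despite its name, by 0.05 ± 0.13 (0.757). At the stalk base MRPL10 differed by -0.06 ± 0.15 (0.761). Its neighbour MRPL11 fell by 0.46 ± 0.16 on the log2 scale (0.0193), and missed the threshold without DMSO replicate 3 (0.0954). Of small-subunit proteins, MRPS16 fell by 0.33 ± 0.09 (0.0033). MRPS22 fell by 0.37 ± 0.14 (0.0378), a call lost when DMSO replicate 2 (0.178) or 3 (0.0692) was left out, and likewise 468 nM replicate 1 (0.0719), 2 (0.0679) or 3 (0.0626).

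Only 3 members were called higher at 468 nM and 24 h. MRPS33, a small-subunit protein found only in mitochondrial ribosomes, had values of 4.90, 5.33, 5.41 and 4.82 with DMSO, 5.39, 5.08, 5.64, 5.32 and 5.36 with 75 nM and 5.48, 5.54, 5.63, 5.85 and 5.78 with 468 nM. All 468 nM arrays lay above all DMSO arrays (change 0.54 ± 0.14, limma adjusted p = 0.00213). MRPL33, the counterpart of bacterial L33, had values of 4.58, 4.83, 4.69 and 4.60 with DMSO, 5.26, 5.39, 5.28, 5.28 and 4.82 with 75 nM and 5.23, 5.24, 5.03, 5.51 and 5.06 with 468 nM. Again the 468 nM and DMSO arrays did not overlap (change 0.54 ± 0.15, adjusted p = 0.00433). Both probe sets are near the filter: MRPS33 exceeded it on 12 arrays, all at 24 h, among them all 5 at 468 nM, all 5 at 75 nM and 2 of 4 with DMSO. MRPL33 exceeded it on 14 arrays, among them all 5 at 468 nM and 0 of 4 with DMSO at 24 h. MRPS33 was therefore tested only through the 24 h groups, in which the treated arrays were the higher ones, whereas MRPL33 also exceeded the filter on 1 DMSO array, 2 arrays at 75 nM and 2 at 468 nM at 4 h. MRPS21, the counterpart of bacterial S21, had values of 8.78, 9.10, 9.24 and 9.33 with DMSO, 9.28, 9.09, 9.29, 9.40 and 9.23 with 75 nM and 9.52, 9.20, 9.66, 9.52 and 9.30 with 468 nM, and these overlapped. Its change of 0.33 ± 0.12 (adjusted p = 0.0259) missed the threshold when DMSO replicate 1 (0.146), DMSO replicate 2 (0.0515), 468 nM replicate 1 (0.0516) or 468 nM replicate 3 (0.0755) was left out.

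**Figure D3:**
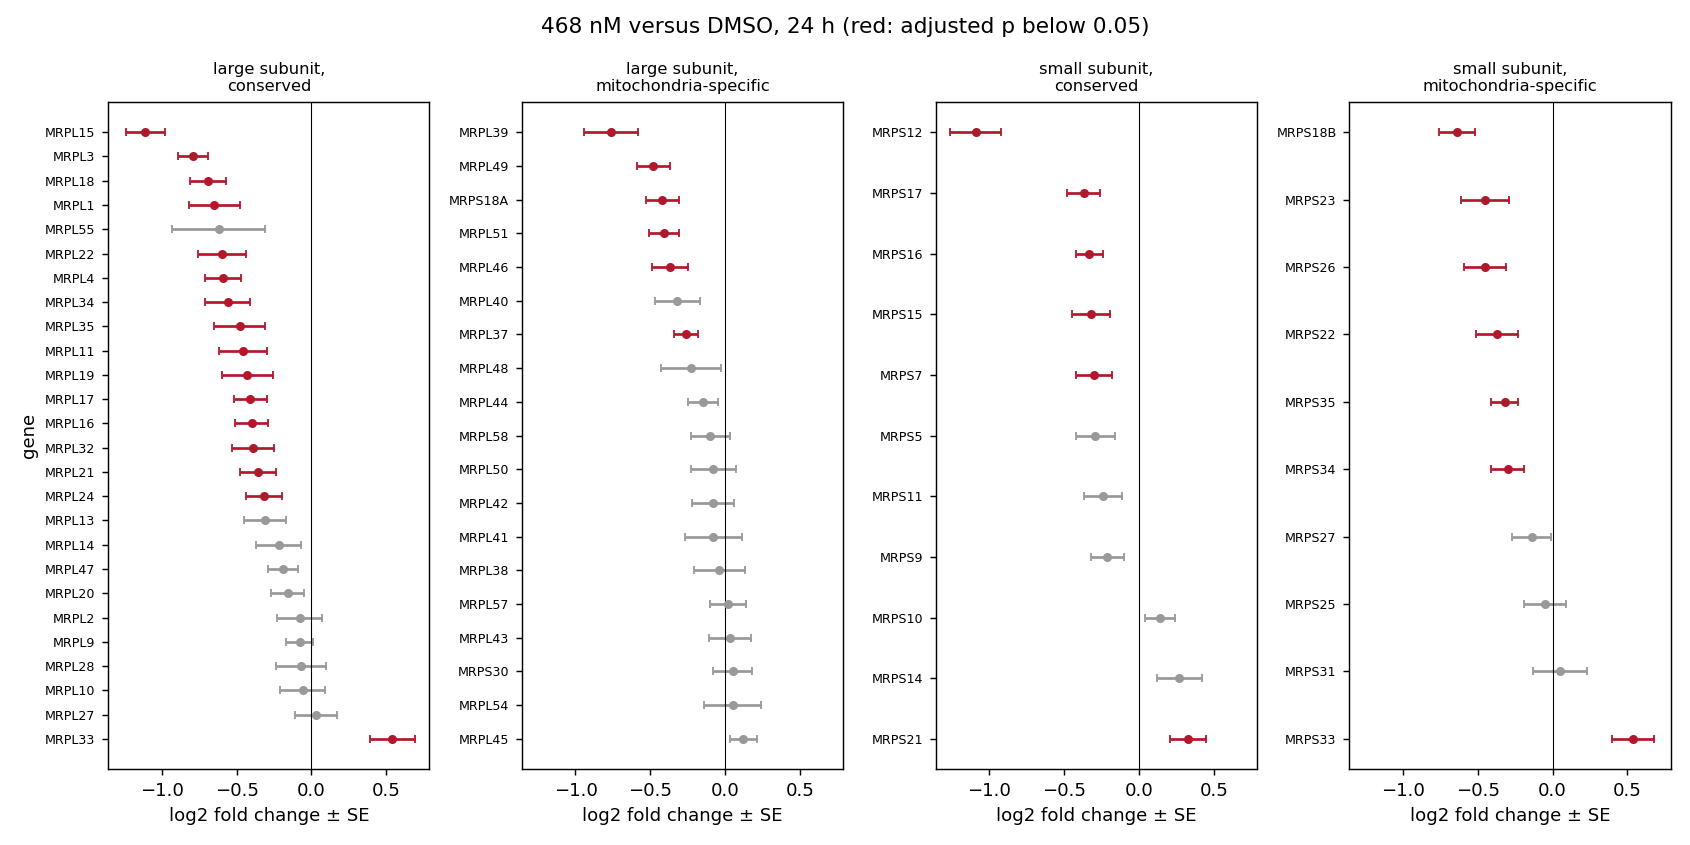
Log2 fold change with SE (bars) at 468 nM against DMSO at 24 h for the 66 tested protein-coding members, in 4 structural groups (red, adjusted p below 0.05). Most points lie left of 0 in every group, with MRPL33, MRPS21 and MRPS33 the red points to the right.

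Counts by place in the particle are to be read against the 25.1% of all genes called lower and 20.4% called higher in the same comparison. In the large subunit 21 of 45 tested genes fell and 1 rose, with a median change of -0.31. In the small subunit 11 of 21 fell and 2 rose, with a median of -0.30. Genes with a bacterial counterpart had 20 of 37 lower and 2 higher (median -0.32), and genes without had 12 of 29 lower and 1 higher (median -0.15). Within the large subunit, 15 of 26 genes with a counterpart and 6 of 19 without were lower, with medians of -0.40 and -0.10. These were 57.7% and 31.6% of their groups. Within the small subunit the order was reversed. There, 5 of 11 genes with a counterpart (45.5%) and 6 of 10 without (60%) were lower, with medians of -0.29 and -0.31. The differences between these groups were not tested.

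At 75 nM and 24 h, 0 members were called against DMSO (limma), with 12 at an unadjusted p below 0.05, and 0.872% of all genes were called. The median change was -0.11, against -0.02 over all genes tested, and 51 of 67 members were below 0. The count became 1 when DMSO replicate 1 or 4 or 75 nM replicate 4 or 5 was left out. MRPL15 had a log2 difference of -0.53 ± 0.13 (adjusted p = 0.0505), MRPS12 of -0.66 ± 0.17 (0.0568) and MRPL33 of 0.53 ± 0.15 (0.0761). The means at 24 h stood in the order DMSO, 75 nM, 468 nM from high to low for 45 of 67 members (67.2%), against 35.3% of all genes tested. The opposite order held for 7 (10.4%), against 31.1% of all genes. At 4 h that order from high to low held for 29.9% of members and for 29.9% of all genes.

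The higher dose was then set directly against the lower one. At 24 h, 12 members were lower and 1 was higher at 468 nM than at 75 nM (17.9% and 1.49%), against 17.4% and 13.4% of all genes, and the median change was -0.15 against -0.01. The share called lower was thus near that of all genes. Without 468 nM replicate 2 or without 75 nM replicate 3 the count of calls dropped to 7, and without 75 nM replicate 4 to 8. The median change was -0.08 without 468 nM replicate 2. MRPL15 (-0.58 ± 0.13, limma adjusted p = 0.00108) and MRPL3 (-0.47 ± 0.09, 0.000308) held in every setting. MRPL22 (-0.55 ± 0.15, 0.00659) held where it was tested, which excluded the filter at 7 and the fit without 75 nM replicate 3. It exceeded the filter on 4 arrays, among them 1 at 75 nM and 24 h and 0 at 468 nM and 24 h. As said above, MRPL22 was tested only through groups in which it was higher than at 468 nM and 24 h. MRPL22 had values of 3.70, 4.61, 4.26, 4.65 and 4.43 with 468 nM, against 4.96, 4.85, 5.0, 4.89 and 4.71 with 75 nM, without overlap. MRPL18 (-0.37 ± 0.11, 0.0114) kept its call with any array left out, but lost it when arrays were shifted by reference genes (0.0683). MRPS18B (-0.37 ± 0.11, 0.0141) lost its call without 468 nM replicate 2 (0.0504). The same held with no filter (0.0544) and with only the groups compared in the fit (0.0608). MRPS12 (-0.43 ± 0.16, 0.0422) lost its call without replicate 1, 2 or 3 of either dose (0.0567 to 0.167). MRPS14, the counterpart of bacterial S14, was the member higher at 468 nM, with values of 7.10, 7.11, 7.36, 7.45 and 7.11 with 468 nM, against 6.79, 6.94, 6.88, 6.91 and 6.77 with 75 nM and a change of 0.37 ± 0.14 (0.0462). That call was lost without 468 nM replicate 3 or 4 or without any of the 75 nM arrays (0.0544 to 0.107). At 4 h, 0 members were called between the doses, 5 had an unadjusted p below 0.05, and 2.56% of all genes were called.

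**Figure D4:**
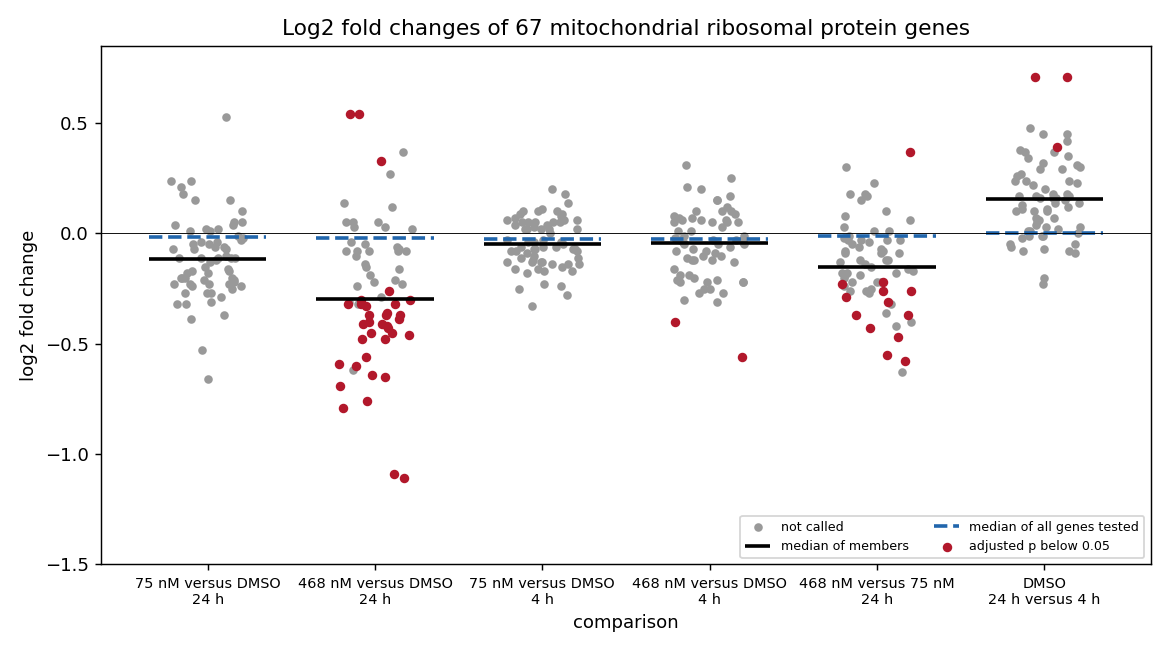
Log2 fold changes of the 67 tested members (points) in 6 comparisons, with calls in red, the members' median as a solid line and the median of all genes tested as a dashed line. The medians separate most at 468 nM and 24 h (-0.30 against -0.02) and lie close together at 4 h.

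At 4 h few members were called. At 468 nM 2 members were lower than with DMSO and 0 higher, against 6.95% and 3.96% of all genes, and the members' median change was -0.04 against -0.03. The count was 0 without DMSO replicate 2 and 1 without DMSO replicate 4. MRPL50, a large-subunit protein without bacterial counterpart, had values of 5.76, 5.97, 5.97, 5.63 and 6.09 with 468 nM, against 6.43, 6.56, 6.29 and 6.49 with DMSO. These did not overlap, and the change was -0.56 ± 0.15 (limma adjusted p = 0.0149, and 0.0512 without DMSO replicate 2). At 24 h MRPL50 was not called, with a difference of -0.08. MRPS17, the counterpart of bacterial S17, had values of 7.35, 7.48, 7.61, 7.32 and 7.52 with 468 nM, against 7.88, 8.0, 7.56 and 7.98 with DMSO, which overlapped (change -0.40 ± 0.11, adjusted p = 0.0154, and 0.0659 and 0.0586 without DMSO replicate 2 or 4). At 75 nM and 4 h 0 members were called, 1 had an unadjusted p below 0.05 (limma), and 0.679% of all genes were called.

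Whether the effect of 468 nM differed between the times was tested as an interaction. It was more negative at 24 h than at 4 h for 11 members (16.4%, against 12.7% of all genes) and more positive for 2 (2.99%, against 10.8%), with a median difference of -0.22 against 0.01 over all genes. Without 468 nM replicate 2 at 24 h the median difference was -0.15, with 10 members more negative and 1 more positive. MRPS12 had a difference of -0.87 ± 0.24 (limma adjusted p = 0.01), MRPL1 of -0.85 ± 0.25 (0.0134), MRPL15 of -0.80 ± 0.19 (0.00336), MRPL3 of -0.70 ± 0.14 (0.000564) and MRPL18 of -0.69 ± 0.16 (0.00334). At 4 h MRPS12 had values of 6.28, 6.46, 6.47 and 6.61 with DMSO, 6.34, 6.39, 5.79, 6.31 and 6.24 with 75 nM and 6.20, 6.25, 6.20, 6.10 and 6.43 with 468 nM. MRPL1 at 4 h had 4.82, 4.5, 4.73 and 4.91 with DMSO, 5.01, 5.20, 4.48, 4.35 and 4.99 with 75 nM and 5.08, 5.06, 4.90, 4.89 and 4.78 with 468 nM, and MRPL3 had 9.94, 9.70, 9.96 and 9.84 with DMSO, 9.82, 9.60, 9.59, 9.52 and 9.87 with 75 nM and 9.77, 9.79, 9.72, 9.72 and 9.85 with 468 nM. For these 3 genes the 468 nM and DMSO arrays overlapped at 4 h and did not at 24 h. As said above, MRPL1 was tested only through groups in which it was higher than at 468 nM and 24 h. MRPL39 also had -0.69 ± 0.26 (0.0499), but kept its call only without DMSO replicate 1 or 468 nM replicate 3 at 4 h, or without DMSO replicate 4 or 468 nM replicate 4 at 24 h. Among the other arrays its adjusted p ran up to 0.121 when 1 was left out.

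The 2 members with a more positive difference were MRPL33 (0.57 ± 0.21, limma adjusted p = 0.0464) and MRPL45 (0.34 ± 0.12, 0.0434). MRPL45 at 24 h had values of 9.60, 9.53, 9.67, 9.64 and 9.5 with 468 nM, against 9.28, 9.60, 9.65 and 9.36 with DMSO, and at 4 h of 8.95, 8.95, 8.86, 8.87 and 9.19 with 468 nM, against 9.22, 9.05, 9.23 and 9.23 with DMSO. The groups overlapped at both times, with differences of 0.12 ± 0.09 at 24 h (0.271) and -0.22 ± 0.09 at 4 h (0.106). Each of these calls was lost with any of 12 of the 18 arrays left out. The arrays whose removal kept MRPL33 were 468 nM replicate 2 or 5 and DMSO replicate 4 at 4 h, and 468 nM replicate 3 or 5 and DMSO replicate 2 at 24 h. Those for MRPL45 were 468 nM replicate 5 and DMSO replicate 2 at 4 h, and 468 nM replicate 2 or 5 and DMSO replicate 2 or 3 at 24 h. For 75 nM the same test called 0 members, with 3 at an unadjusted p below 0.05 and 0.0323% of all genes called.

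Between the times in solvent-treated cells, 4.48% of members were called, near the 5.23% of all genes. In DMSO cells 3 members were higher at 24 h than at 4 h and 0 lower (all genes: 2.63% and 2.61%), and the median difference was 0.15, against 0.00 over all genes, with 54 of 67 members above 0. Without replicate 3 at 4 h 1 member was called, and without replicate 4 at 4 h 5 were. MRPL34, the counterpart of bacterial L34, had DMSO values of 8.25, 8.48, 8.57 and 8.56 at 24 h, against 7.51, 7.93, 7.47 and 8.13 at 4 h, a difference of 0.71 ± 0.16 (limma adjusted p = 0.0108, and 0.0505 without replicate 3 at 4 h). MRPS14 had 6.77, 6.91, 7.01 and 7.15 at 24 h, against 6.04, 6.27, 6.06 and 6.63 at 4 h, a difference of 0.71 ± 0.16 (0.00998). Neither gene's groups overlapped. MRPL49 was higher by 0.39 ± 0.12 (0.0488), a call lost without replicate 2, 3 or 4 at 24 h or replicate 1, 2 or 3 at 4 h (0.0627 to 0.15). The DMSO arrays at 24 h are also the controls of the 24 h comparisons with either dose, which therefore share them. MRPL34 and MRPL49 were also called lower at 468 nM than with DMSO at 24 h. At 468 nM and 24 h they averaged 7.91 and 8.3, against 7.76 and 8.39 with DMSO at 4 h, a difference that was not tested. Over the arrays of a group, the median of the members' log2 values minus their gene means averaged 0.16 ± 0.09 (SD) with DMSO, 0.05 ± 0.07 with 75 nM and -0.09 ± 0.15 with 468 nM at 24 h. The corresponding 4 h means were 0.00 ± 0.04, -0.03 ± 0.09 and -0.03 ± 0.07.

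Genes working with the mitochondrial ribosome are given for the same comparison, 468 nM against DMSO at 24 h, in which 25.1% of all genes were called lower and 20.4% higher. Of 4 ribosomal proteins with other names, GADD45GIP1 fell (-0.76 ± 0.16, limma adjusted p = 0.000372), and CHCHD1, PTCD3 and DAP3 were not called. Of 26 tested assembly factors 10 fell (38.5%) and 4 rose (15.4%), with a median of -0.17. They included MRM1, a methyltransferase of the mitochondrial ribosomal RNA (-1.19 ± 0.14), RCC1L (-0.71 ± 0.09) and FASTKD2 (-0.68 ± 0.12), whereas the GTPase NOA1 rose by 0.72 ± 0.12. Of 18 translation factors 3 fell (16.7%, below the share of all genes), namely QRSL1 (-0.67 ± 0.11), the elongation factor TSFM (-0.66 ± 0.12) and TACO1 (-0.59 ± 0.13), and 2 rose, among them GUF1 (0.54 ± 0.11). Of 15 mitochondrial transcription and nucleoid genes 9 fell (60%) and 1 rose, with a median of -0.40. The nuclease MGME1 (-0.85 ± 0.15), the exoribonuclease PNPT1 (-0.82 ± 0.10), the helicase TWNK (-0.74 ± 0.16) and the transcription factor TFB2M (-0.69 ± 0.14) changed most. Of 9 nuclear regulators of mitochondrial genes 5 fell (55.6%) and 1 rose. PPRC1, a coactivator related to PGC-1 (-1.28 ± 0.10), the receptor ESRRA (-0.91 ± 0.25) and NRF1 (-0.65 ± 0.14) fell, and CREB1 rose by 0.78 ± 0.14. MYC fell by 0.54 ± 0.13 at 24 h and by 1.07 ± 0.13 at 4 h (adjusted p = 0.00185 and 2.59e-06). With any array left out and in each alternative that tested them, the genes named in this comparison kept their calls, with adjusted p up to 0.0293. TSFM, MRM1, ESRRA and NRF1 could not be tested with the filter at 7.

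Counts for 2 related families were taken in the same comparison. Of 46 tested cytosolic ribosomal protein genes 9 fell and 3 rose, with a median of 0.02. Of 50 nuclear genes for subunits of the respiratory chain and ATP synthase 5 fell and 8 rose, with a median of 0.08. In DMSO cells the respiratory chain genes were higher at 24 h than at 4 h for 5 of 50, with 0 lower and a median difference of 0.26. The difference between families was not tested.

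**Figure D5:**
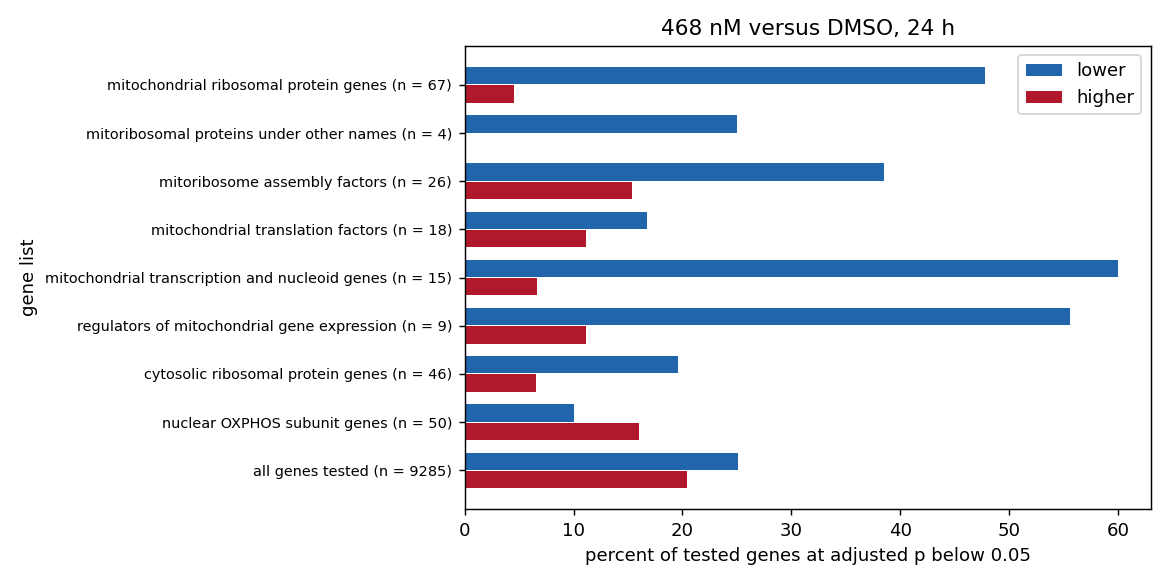
Percent of tested genes called lower (blue) or higher (red) at 468 nM against DMSO at 24 h, for the mitochondrial ribosomal protein genes, related gene lists and all genes tested, with the number tested beside each name. The share lower was 47.8% for the mitochondrial ribosomal protein genes, 19.6% for cytosolic ribosomal protein genes and 10% for respiratory chain genes.

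Not all members could be followed. Of those with a probe set of their own, MRPL23, MRPL36, MRPL52, MRPS18C and MRPS2 and the noncoding MRPL23-AS1, MRPL42P5, MRPL45P2 and MRPS30-DT did not pass the filter, with group means from 1.05 (MRPL42P5) to 4.53 (MRPL52). MRPL20-AS1 was the tested noncoding member and was not called (0.37 ± 0.17, limma adjusted p = 0.0834 at 468 nM and 24 h). MRPL12, the stalk protein, and MRPL30, MRPL53, MRPS24, MRPS28 and MRPS6 had only probe sets that also name another gene, so no value was assigned to them. Levels of different genes were not compared.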

How the data were processed

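Gene expression of CHL-1 cells was measured on 28 Affymetrix whole-transcript arrays. Linear intensity values of 53617 probe sets were deposited by the authors, summarised with RMA per the submitters' processing notes. The RMA software version and the build behind the annotation were not given in the sources used here. The deposited intensities were converted to log2 here. Array medians lay between 2.44 and 2.49, which means that a shift common to most transcripts is invisible. Precision is limited by how many arrays there are.

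Gene names came from the platform annotation (23871 with 1 symbol, 1842 with several, 27904 not listed), updated with the RefSeq gene table of GRCh38.p14. The 6 group means were estimated from all arrays with limma 3.58.1 in R 4.3.3 (22 residual degrees of freedom), with Benjamini-Hochberg adjustment over 9285 genes. The fit was tested on simulated data in which 200 of 9285 genes were changed in the 468 nM, 24 h group. It recovered 37.5% of log2 changes of 0.5 and 86.0% of those of 1.0, with 4 and 6 false calls. A gene that was not called may therefore still have changed. The simulation changed fewer genes than were called at 468 nM and 24 h in the data, so these shares need not carry over. Tables were made with Python 3.11.15.

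The members, lists and tests were chosen with earlier results of these data known. Genes were named by role or as the most changed called members of each comparison, 12 per direction at 468 nM and 24 h and 6 elsewhere, with up to 4 per related list. Alternatives changed the filter (7 or none), scaling, probe set rule, arrays fitted, weights, a replicate block and single arrays.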

Additional observations from a re-analysis of the deposited data

Results flagged for a closer look

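For 15 members and the median over members, each group was checked for an array far from the others by Dixon's criterion, 96 checks in all, of which chance gives about 1 in 20. It marked 8 values, all in log2 intensity. MRPS12 was 5.79 on replicate 3 of 75 nM at 4 h (others 6.24 to 6.39) and 6.35 on replicate 3 of 75 nM at 24 h (others 5.88 to 6.01). MRPS21 was 9.04 on replicate 2 of 468 nM at 4 h (others 8.78 to 8.85). MRPL33 was 4.82 on replicate 5 of 75 nM at 24 h (others 5.26 to 5.39), and MRPL34 was 8.52 on replicate 3 of that group (others 8.13 to 8.19). In DMSO cells, MRPL15 was 7.95 on replicate 1 at 4 h (others 8.16 to 8.20), MRPL45 was 9.05 on replicate 2 at 4 h (others 9.22 to 9.23), and MRPL18 was 7.69 on replicate 4 at 24 h (others 8.11 to 8.20).

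The effect of 468 nM differed between 24 h and 4 h, by the interaction test in limma, for 13 members (19.4%). The share among all genes tested was higher, 23.5%. The differences in log2 fold change, 24 h minus 4 h, were -0.87 for MRPS12, -0.85 for MRPL1, -0.80 for MRPL15, -0.70 for MRPL3, -0.69 for MRPL18 and -0.69 for MRPL39. They were -0.61 for MRPL11, -0.57 for MRPL17, -0.56 for MRPL49, -0.54 for MRPL4 and -0.49 for MRPL51. MRPL33 and MRPL45 had positive differences of 0.57 and 0.34. The call for MRPL11 (adjusted p = 0.0485) was lost with 11 of the 18 arrays left out in turn, with values up to 0.126. Those whose removal kept it were 468 nM replicate 4 and DMSO replicate 1 at 24 h, and 468 nM replicate 1, 3 or 4 and DMSO replicate 3 or 4 at 4 h. The call for MRPL4 was lost without DMSO replicate 1 at 4 h (0.0569) or DMSO replicate 4 at 24 h (0.0523).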

How the results depend on the processing

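The number of members called at 468 nM against DMSO at 24 h (35) was 22 with the filter at 7, 21 with no filter and 20 with only the groups compared in the fit, and 23 to 38 with single arrays left out. At 468 nM and 4 h (2) it was 1 with the filter at 7, 0 with no filter, 8 when arrays were shifted by reference genes, 1 with only the groups compared, and 0 to 3 without single arrays. At 75 nM and 24 h (0) it was 1 with the filter at 7, 3 with the shift and 3 with array weights, and 0 to 1 without single arrays. For 468 nM against 75 nM at 24 h (13) it was 4 with no filter, 4 with the shift, 5 with only the groups compared, and 7 to 18 without single arrays. For the interaction at 468 nM (13) it was 7 with the filter at 7, 7 with no filter, and 9 to 16 without single arrays. For DMSO over time (3) it was 6 with the filter at 7, 0 with no filter, 17 with the shift, 0 with only the groups compared, 10 with array weights, and 1 to 5 without single arrays. The higher filter tests fewer members, and the fit of the groups compared uses fewer arrays; the cause of the other changes was not tested. The shift by 8 reference genes moved the median over all genes to -0.15 at 468 nM and 4 h, -0.12 at 75 nM and 24 h, -0.10 at 468 nM and 24 h, -0.12 between the doses at 4 h and 0.15 for DMSO over time.

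With the set of title numbers as a replicate block, the calls numbered 2 at 75 nM and 24 h and 8 for DMSO over time, and elsewhere stayed within 1.5 times the counts above. The labels do not say what these numbers mean. Set 1 held no DMSO array, so DMSO replicate 1 is in set 2 with replicate 2 of each dose. Over all genes tested, arrays of the same set deviated together in part. The median correlation was 0.036 to 0.176 within a set, with a lowest value of -0.127, and -0.02 between sets. In sets 1 to 5, 3 of 4, 6 of 6, 2 of 6, 6 of 6 and 5 of 6 arrays correlated best with their own set, a hint from the data and not from the design. Over the members at 24 h, set 2 held the lowest array median of every group and set 4 the highest. These were 0.04 and 0.23 with DMSO, -0.06 and 0.11 with 75 nM and -0.30 and 0.12 with 468 nM. Within each set that held DMSO arrays, the members' median at 24 h was lower at 468 nM than with DMSO. The values were -0.298 and 0.039 in set 2 and -0.057 and 0.215 in set 3. In set 4 they were 0.122 and 0.232, and in set 5 -0.113 and 0.142. Calls held in all settings that tested the gene for 18 of 35 members at 468 nM against DMSO at 24 h, 3 of 13 between the doses at 24 h, 7 of 13 for the interaction, 0 of 2 at 4 h and 0 of 3 for DMSO over time, and 0 calls changed sign. Of those kept, 8, 1 and 3 could not be tested in every setting. Signs turned for uncalled members near 0 at 468 nM and 24 h. With single arrays left out they ran from -0.12 to 0.06 for MRPL10, -0.19 to 0.08 for MRPL2, -0.19 to 0.05 for MRPL41, -0.19 to 0.03 for MRPL58 and -0.04 to 0.15 for MRPS30, which was -0.03 with the shift and with array weights.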

Other observations

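Some mitochondrial ribosomal protein genes start close to a gene transcribed the other way, and these neighbours were looked up after the members' values were seen. In the RefSeq annotation 25 of 64 members had such a neighbour within 1000 bases. How often this holds over all genes was not counted. Of 6 members that fell at 468 nM and 24 h and had a tested neighbour, 1 had a neighbour that fell, 1 had a neighbour that rose and 4 had neighbours that were not called (limma). Over all genes tested, 25.1% were called lower and 20.4% higher. NCAPD2, a condensin subunit beside MRPL51, had a log2 change of -0.62 ± 0.12 (adjusted p = 0.000197), and PPP1R10, beside MRPS18B, rose by 0.33 ± 0.12 (0.0261). The call for PPP1R10 was lost in 8 of 17 settings, among them without 468 nM replicate 1, 2 or 5 and without DMSO replicate 3 or 4, with adjusted p up to 0.244. Beside members that were not called, SKA3 at MRPL57 fell by 1.40 ± 0.17 (2.81e-07) and EME1 at MRPL27 fell by 0.95 ± 0.20 (0.000481), while ZNF189 at MRPL50 rose by 0.71 ± 0.21 (0.0071) and TMEM63B at MRPL14 by 0.33 ± 0.11 (0.0186). The call for TMEM63B was lost in 5 of 17 settings, among them without DMSO replicate 1 or 3, with adjusted p up to 0.157. MRPL46 and MRPS11 start 320 bases apart, with log2 differences of -0.37 ± 0.12 (0.0164) and -0.24 ± 0.13 (0.122). The call for MRPL46 was lost when 468 nM replicate 2 (0.0622) or DMSO replicate 3 (0.0574) or 4 (0.0806) was left out.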
